A study of Mus musculus with 2 samples.

Results

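Bex1, Bex2, Bex4, Wbp5, Tceal1 and Tceal8 are 6 members of the Bex and Tceal families on the mouse X chromosome, taken from a table of counts for 22556 genes, of which 908 were X-linked. The genes were picked by symbol, and were chosen by a readout of these libraries, since Bex1 and Wbp5 stand among the X-linked genes with the highest levels. Their levels are therefore given as a description, with no test. Messenger RNA was sequenced from iXist-ChrX-Dom mESCs, a female (XX) mouse embryonic stem cell line of strain Dom/129S x Cast that is a single clone. In these cells a TetOn promoter stands in place of the endogenous Xist promoter on the Dom/129S allele. The only group was uninduced: no doxycycline was given (0 h) and both replicates carried the same engineered allele, so the series holds 1 group of 2 replicates and no contrast between conditions. The cells had been grown in serum and LIF on inactivated mouse fibroblasts.

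Bex (brain expressed X-linked) and Tceal (transcription elongation factor A-like) genes encode small, largely disordered proteins and lie side by side on the X chromosome of placental mammals, where they arose from a common ancestor by duplication. They are best known for high expression in brain. Bex1 and Bex3 (listed in the table as Ngfrap1) bind the p75 neurotrophin receptor encoded by Ngfr, and Bex1 was also described, under the name Rex3, as a gene that retinoic acid reduces in teratocarcinoma cells. The Tceal genes are named for their resemblance to Tcea1, the gene of the elongation factor TFIIS. Wbp5 was named as a WW domain-binding protein and now carries the symbol Tceal9. In the study the level of an X-linked gene before Xist induction served to sort genes into low, medium and high initial expression.

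The sequences before the starts of Bex1 and Bex4 are shown first, because the 2 genes share most of them. The lines below give the 250 bases before each RefSeq start (GRCm38.p6, 5′ to 3′ on the strand of the gene), at chrX:136215514-136215763 on the minus strand for Bex1 and chrX:136138746-136138995 on the plus strand for Bex4. Capitals mark the bases outside a run of 271 bases that both windows hold letter for letter, and which goes on past the start of each gene.
Bex1: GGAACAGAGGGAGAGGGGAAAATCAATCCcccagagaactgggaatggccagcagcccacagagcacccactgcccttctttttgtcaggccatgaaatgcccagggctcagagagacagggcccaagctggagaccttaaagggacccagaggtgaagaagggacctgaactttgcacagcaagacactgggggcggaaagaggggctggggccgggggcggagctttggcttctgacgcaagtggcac
Bex4: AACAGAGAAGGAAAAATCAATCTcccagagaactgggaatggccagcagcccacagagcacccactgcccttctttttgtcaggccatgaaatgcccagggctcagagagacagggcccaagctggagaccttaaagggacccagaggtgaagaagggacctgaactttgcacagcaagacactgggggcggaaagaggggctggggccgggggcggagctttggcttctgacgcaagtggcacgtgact

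Of the 20-base words in the 300-base Bex1 window (250 bases before to 50 after the start), 89.7% also occurred in the Bex4 window. The windows of Bex2 and Ngfrap1 shared a run of 162 bases, and 55.5% of the 20-base words of Bex2. No other pair among the 6 genes and Ngfrap1 shared a 20-base word, and the longest run in common was 17 bases, between Wbp5 and Tceal8.

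A short stretch near the start was alike in the 6 genes beyond these pairs. It is shown because it holds the same short motifs in most of these genes, and was chosen after the windows were inspected. Each line below gives 30 bases, with TGACG and CACGTGAC in capitals where they occur. CACGTG, the core of the second, is the palindromic E-box bound by basic helix-loop-helix factors, and TGACG is the core of a cyclic AMP response element. The stretches lie at chrX:136215507-136215536 (minus strand, Bex1), chrX:136138967-136138996 (plus, Bex4), chrX:136068163-136068192 (minus, Bex2), chrX:136245068-136245097 (plus, Wbp5), chrX:136172225-136172254 (minus, Tceal8), chrX:136707961-136707990 (plus, Tceal1) and chrX:136270260-136270289 (plus, Ngfrap1). The Bex2 stretch was read from its GENCODE M21 transcript (GRCm38) and the others from the RefSeq windows (GRCm38.p6).
Bex1: ttggcttcTGACGcaagtggCACGTGACta
Bex4: ttggcttcTGACGcaagtggCACGTGACta
Bex2: tggcagTGACGcagggccctCACGTGACcc
Ngfrap1: tggcagTGACGcagggccctCACGTGACcc
Tceal1: cagctgTGACGcgctcccctCACGTGACca
Tceal8: ctcattgaTGACGcgatcctCACGTGACca
Wbp5: ctcactggTGACGtagatctcatgtgacca

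Both motifs were searched on both strands. CACGTGAC was found in the windows of 4 of the 6 genes (Bex1, Bex4, Tceal1 and Tceal8), against 2.25% of all 32851 RefSeq windows and 3.35% of the 1223 X-linked ones. TGACG was found in 6 of 6, against 20.8% of all windows and 19.1% of X-linked ones, and a window with both was found in 1.00% and 1.88%. In Bex2 both motifs of the printed stretch lay within the transcript, just past the end of the window, and the TGACG counted for its window was another one, at position -47 from the start. The other 5 genes had the TGACG of the printed stretch within the window, and Wbp5 had catgtgac at the matching place. Among the other family members, windows of Ngfrap1, Tceal3, Tceal5 and Tceal6 held CACGTGAC, and those of Tceal7 and of Bex6, a family member on chromosome 16, did not. Tceal3 and Tceal5 each had several windows, of which not all held it, whereas the shares over all windows were taken per window. The genes are duplicates, so these windows are not independent of each other, and a match is a description of letters, not of binding. The observed over expected frequency of CpG ran from 0.286 in Bex1 and 0.334 in Bex4 to 0.651 in Tceal8 and 0.796 in Wbp5, with 0.407 in Tceal1 and 0.559 in Bex2, beside a median of 0.384 over all windows.

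The 6 genes lie within 643 kb (mm10), in the order Bex2, Bex4, Tceal8, Bex1, Wbp5 and Tceal1. Bex2 occupies chrX:136066564-136068236 (minus strand), Bex4 chrX:136139044-136140437 (plus), Tceal8 chrX:136168983-136172251 (minus), Bex1 chrX:136213971-136215513 (minus), Wbp5 chrX:136245079-136247139 (plus) and Tceal1 chrX:136708064-136709866 (plus). All are short: each of the 6 spans under 4000 bp, as did 19.7% of all genes, whose median span was 15760.5 bp. In the GENCODE M21 transcripts used here the coding sequence of each of the 6 lay in 1 exon, the last one. There were 2 exons in Tceal1, 4 in Tceal8 and 3 in each of the others. The encoded proteins ran from 104 residues (Wbp5) and 117 (Tceal8) through 118 (Bex4), 128 (Bex1) and 129 (Bex2) to 165 (Tceal1).

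The libraries held 23716499 counts (replicate 1) and 20275749 counts (replicate 2). A count of 0 thus allowed up to 3 counts, which is 0.126 and 0.148 counts per 1000000 (CPM). The 6 genes together took 59217 counts in replicate 1 and 47483 in replicate 2. They made up 3.19% (Wilson 95% interval 3.17 to 3.22) and 2.83% (2.81 to 2.86) of all counts on X-linked genes. Bex1 and Wbp5 alone held 76.3% and 76.0% of the counts of the 6. Intervals and floors of this kind take in counting error alone, as no molecular identifiers are described for these reads. In these bulk samples, fewer expressing cells and less RNA per cell cannot be told apart.

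Levels are given in 3 ways: as CPM, which ignores length, and as transcripts per 1000000 (TPM) with either of 2 lengths. Span TPM uses the length in the deposited table, which runs from the first to the last transcribed base and includes introns. Exonic TPM uses the summed exons of GENCODE M21. The choice matters here because spans exceed exons by a median of 1.72-fold among the 6 genes but 5.99-fold over all genes, so that span TPM places short genes high.

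Bex1 had 22080 counts in replicate 1 and 14630 in replicate 2, or 931 and 722 CPM. This was 9647 and 8392 span TPM, with a mean of 9019 ± 888 (SD, n = 2), rank 2 among the X-linked genes. With exonic length Bex1 stood at 3392 and 2795 TPM, or 3094 ± 422 (SD, n = 2), rank 5 among X-linked genes. By CPM, which favours long transcripts, its rank was 24. Replicate 1 was the higher of the 2 libraries on every scale.

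Wbp5 had 23108 and 21459 counts, or 974 and 1058 CPM. On the span scale this was 7558 and 9215 TPM, with a mean of 8387 ± 1171 (SD, n = 2), and on the exonic scale 2965 and 3423 TPM, or 3194 ± 324 (SD, n = 2). Wbp5 had rank 4 among X-linked genes with either length and rank 17 by CPM. Its higher value came from replicate 2. On the span and the exonic scale Bex1 lay above Wbp5 in replicate 1 and below it in replicate 2, and the ranges of the 2 genes overlapped. By CPM Wbp5 was the higher of the 2 genes in both libraries.

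Bex4, a family member without a settled function, had 5166 and 3372 counts, or 218 and 166 CPM. Its levels were 2498 and 2141 span TPM (2320 ± 253; SD, n = 2) and 821 and 666 exonic TPM (744 ± 109; SD, n = 2). As with Bex1, replicate 1 was the higher. Tceal8 had more counts but a longer transcript, with 6588 and 6464 counts, or 278 and 319 CPM. Its levels were 1359 and 1750 span TPM (1554 ± 277; SD, n = 2) and 358 and 437 exonic TPM (397 ± 55.7; SD, n = 2). Tceal8 therefore lay above Bex4 by CPM and below it by either TPM.

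Bex2, which shares part of its coding sequence with Bex1, had 2043 and 1341 counts, or 86.1 and 66.1 CPM. Its levels were 823 and 709 span TPM (766 ± 80.5; SD, n = 2) and 301 and 246 exonic TPM (273 ± 39.1; SD, n = 2). Tceal1 was the lowest of the 6, with 232 and 217 counts, or 9.78 and 10.7 CPM. Its span TPM was 86.7 and 107 (96.6 ± 14.0; SD, n = 2), and its exonic TPM was 11.01 and 12.8 (11.9 ± 1.27; SD, n = 2). The GENCODE exons of Tceal1 run beyond the end of the gene in the deposited table, and limited to that span its exonic level was 27.2 ± 2.96 TPM (SD, n = 2). No member overlapped another gene of the table on its strand.

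**Figure D1:**
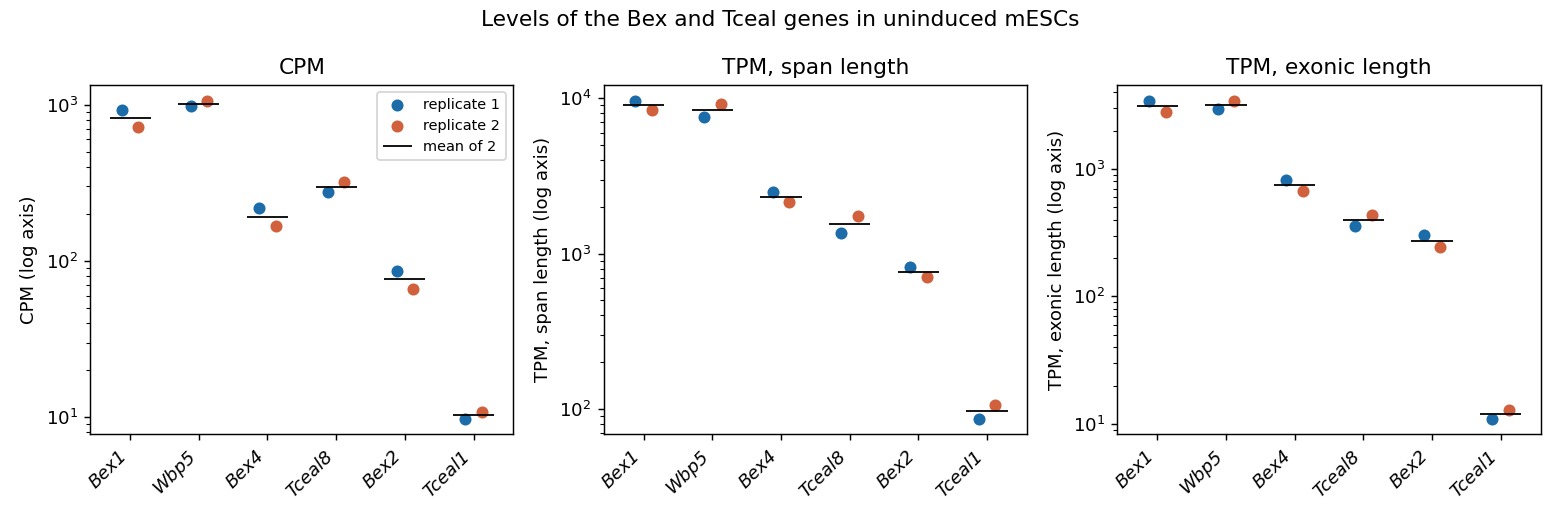
Levels of the 6 genes in the 2 uninduced libraries (dots) and their mean (bar), as CPM, span TPM and exonic TPM from left to right, each on a log axis. Bex1 and Wbp5 stand at the top and cross between replicates on both TPM scales, Wbp5 is the higher of them in both libraries by CPM, Tceal8 lies above Bex4 by CPM only, and Tceal1 lies lowest on all 3 scales.

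From the highest to the lowest mean span TPM the order was Bex1, Wbp5, Bex4, Tceal8, Bex2 and Tceal1. Only Bex1 and Wbp5 had overlapping ranges, and with exonic length they changed places. Every other pair of neighbours was separated in both libraries on the span and the exonic scale. By CPM, means ran from 1016 ± 59.4 (SD, n = 2) for Wbp5, the highest on that scale, to 10.2 ± 0.651 for Tceal1.

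The 532 X-linked genes with a mean of at least 1 span TPM were sorted by level and cut into a low, a medium and a high group of equal size. All 6 genes fell into the high group, which began at 62.3 TPM. With exonic length (530 genes) the high group began at 83.3 TPM and the low group ended at 13.8 TPM, and Tceal1 then fell into the low group while the other 5 stayed in the high group. Limited to the deposited span, Tceal1 was in the medium group, and by CPM Bex2 was medium and Tceal1 low. The X-linked genes most like Bex1 in exonic level, by Euclidean distance of log2(TPM + 1) over the 2 libraries, were Wbp5 at 0.351, Dkc1 (dyskerin, a protein of small nucleolar RNA particles and telomerase) at 0.509 and Vbp1 (a prefoldin subunit) at 0.582. Those most like Wbp5 were Vbp1 at 0.245, Bex1 at 0.351 and Slc25a5 (a mitochondrial ADP/ATP carrier) at 0.579.

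The 3 Bex genes cannot be separated by reads over their whole length. Of the 50-base words of the Bex1 transcript, 32.8% (268 of 817) also occurred in a transcript of another gene, 203 of them in Bex4 and 65 in Bex2. Bex4 shared 49.7% of its words (392 of 788), namely 203 with Bex1, 155 with Gm12245 and 149 with Gm4322, some of them with more than 1 gene. Bex2 shared 22.2% (190 of 854), of which 125 were in Ngfrap1 and 65 in Bex1. Of the shared words of Bex1 and of Bex4, 33 also matched Tceal7 in the reverse orientation. Stranded counting can tell these apart only where the alignment kept such reads.

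The shared stretches had different places in the transcript. Bex1 and Bex4 were identical from base 7 to base 258 of Bex1, which is bases 1 to 252 of Bex4, and the coding sequence began at bases 260 and 254. The identical run therefore covered nearly all of both noncoding exons and ended just before the start codon, and it continued the shared stretch before the start shown above. Bex1 and Bex2 shared words in bases 473 to 527 and 529 to 636 of Bex1, all within its coding sequence (bases 260 to 643). Bex2 and Ngfrap1 shared words in bases 38 to 197 and 199 to 261 of Bex2, before its coding sequence, which began at base 265. In Wbp5 and Tceal1 none of 970 and 2754 words were shared, and in Tceal8 21 words (0.909%) matched Gm47178, in bases 391 to 460.

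**Figure D2:**
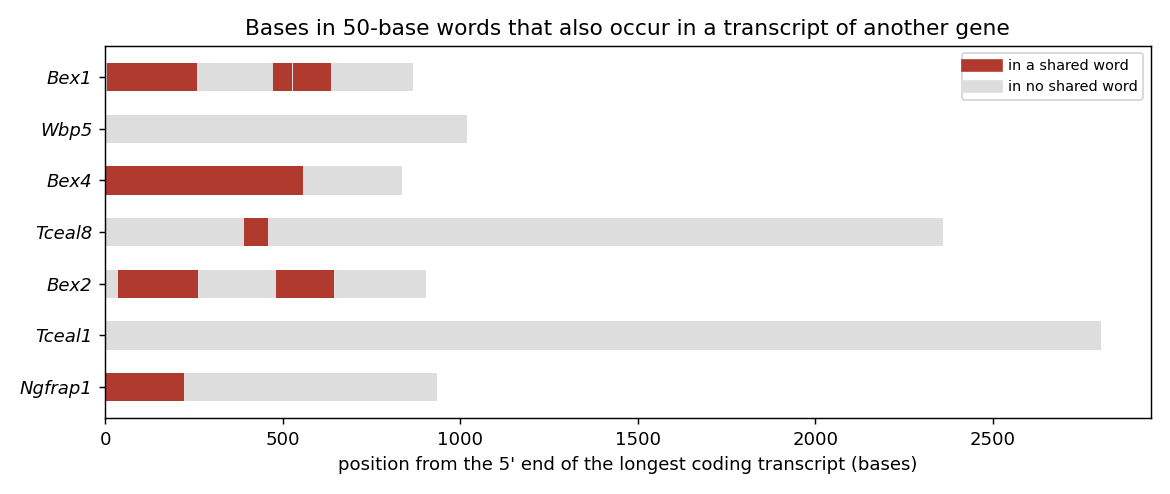
Transcripts of the 6 genes and Ngfrap1 from the 5′ end, in bases, with the positions covered by 50-base words that also occur in a transcript of another gene in red and the rest in grey. Bex1, Bex4, Bex2 and Ngfrap1 share words near the 5′ end and the first 3 also further on, whereas Wbp5 and Tceal1 share none.

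How fragments from shared stretches were counted depends on the alignment, which is not stated for these libraries, although the study kept only uniquely placed reads of its chromatin RNA libraries. If none had been counted, the number of unshared 50-base words gives a rough measure of the length open to counting. It was 549 for Bex1, 396 for Bex4 and 664 for Bex2, and with 75-base words 580, 471 and 709. Counting was by fragment, and a fragment only partly within a shared stretch may still have been counted. The length open to counting may therefore have been greater than these numbers. With the numbers of unshared 50-base words as lengths, the levels were 4880 ± 666 TPM for Bex1, 1572 ± 231 for Bex4 and 372 ± 53.2 for Bex2 (SD, n = 2). Wbp5 stood at 3415 ± 347, Tceal8 at 425 ± 59.6 and Tceal1 at 12.1 ± 1.29 (SD, n = 2). The scaling total over all genes was left at full exonic lengths. These values can therefore be compared among the 6 genes, but not with the TPM of other genes. On this rough measure Bex1 lay above Wbp5 in both libraries, and the order of the 6 means was that of span TPM. The order was not tested with other word lengths. Bex2 lay above Tceal8 in replicate 1 (409 against 383 TPM) and below it in replicate 2 (334 against 467), so with these lengths the ranges of that pair overlapped.

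The 2 libraries were compared gene by gene. For every gene an exact binomial test (two-sided) asked whether its counts were split between the libraries as the library totals were, and p was adjusted by Benjamini-Hochberg over the 14536 genes that had 10 counts or more. This test compares these libraries, not conditions, and its p-values cover counting error only. It called 60.8% of all genes tested, and 45.7% as lower in replicate 2, so a call by itself sets no gene apart. It called 5 of the 6 genes. Bex1, Bex4 and Bex2 were lower in replicate 2, by 1.29-, 1.31- and 1.30-fold (log2 of -0.37, -0.39 and -0.38), with adjusted p of 2.88e-126, 1.39e-33 and 2.12e-13 in the exact binomial test. Wbp5 and Tceal8 were higher in replicate 2, by 1.09- and 1.15-fold (log2 of 0.12 and 0.20), with adjusted p of 1.95e-17 and 2.16e-14 in the exact binomial test. Tceal1 was not called, with a log2 ratio of 0.13 and an adjusted p of 0.424 (exact binomial test). With library totals the 3 Bex genes thus moved one way and Wbp5, Tceal8 and Tceal1 had ratios of the other sign, whereas against the GC trend given below Bex1, Bex2, Wbp5 and Tceal1 changed sign.

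The ratios of the 6 genes lay well within the spread of this pair of libraries. Among the 9736 genes that reached 50 counts in both libraries, 43.2%, 40.7% and 41.6% had a larger absolute log2 ratio than Bex1, Bex4 and Bex2, and 66.0%, 79.0% and 77.4% a larger one than Tceal8, Wbp5 and Tceal1. The median log2 ratio was -0.31 over all genes tested, 0.00 over X-linked genes and -0.12 over the 6. Scaling by TMM factors moved all ratios by 0.22 and scaling by DESeq2 size factors by 0.31, which centres them near the median gene. On the latter scale the 3 Bex genes had log2 ratios of -0.06 (Bex1), -0.08 (Bex4) and -0.07 (Bex2), and Wbp5, Tceal8 and Tceal1 of 0.43, 0.51 and 0.44. With TMM factors the exact binomial test called 6 of the 6 genes and 57.8% of all.

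GC content moved with the replicate ratio. Bex1 and Bex2 had 53.9% and 54.5% GC in their transcripts and Bex4 47.7%, against 43.6% for Tceal8, 40.7% for Wbp5 and 38.6% for Tceal1, with a median of 48.7% over all genes and 44.9% over X-linked genes. The cubic trend of autosomal genes on GC content gave an expected log2 ratio of -0.66 for Bex1, -0.69 for Bex2, -0.29 for Bex4, -0.01 for Tceal8, 0.17 for Wbp5 and 0.27 for Tceal1. Measured against this trend, Bex1 and Bex2 were higher in replicate 2 (log2 of 0.29 and 0.30), Wbp5 and Tceal1 were at -0.05 and -0.14, Bex4 at -0.10 and Tceal8 at 0.21. The directions of Bex1, Bex2, Wbp5 and Tceal1 were thus turned. With the trend as the expected ratio, the exact binomial test called 5 of the 6 genes, 3 as higher and 2 as lower, and 45.6% of all 14386 genes with a GC value. The part of GC content in the difference was not tested further.

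**Figure D3:**
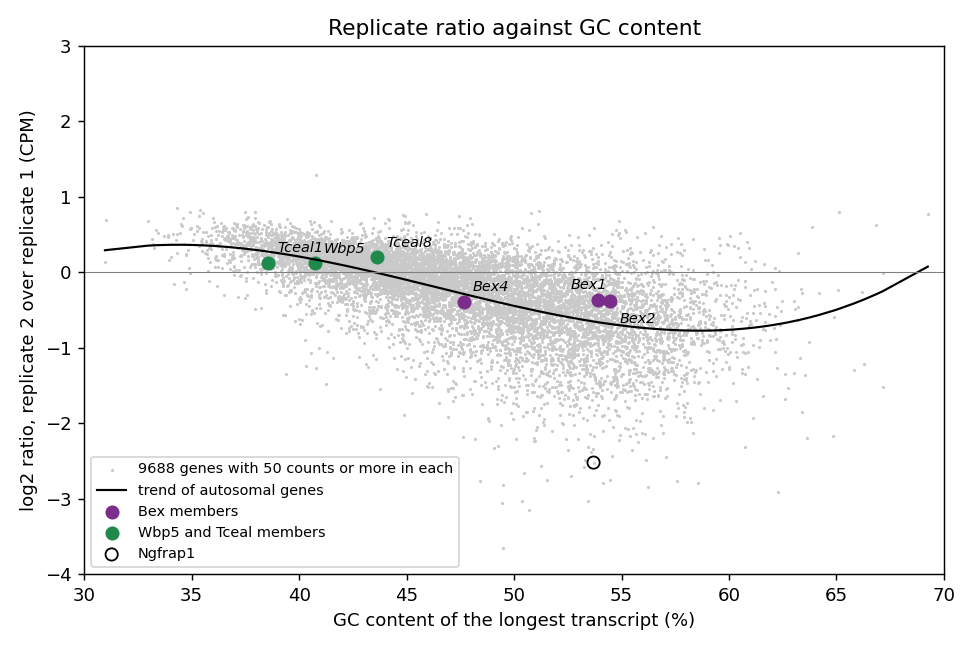
Log2 ratio of CPM, replicate 2 over replicate 1, against GC content of the longest transcript (percent) for genes that reached 50 counts in both libraries (grey), with the cubic trend of autosomal genes (line). The Bex members (violet) lie at higher GC content and below 0 and the Wbp5 and Tceal members (green) at lower GC content and above 0, but against the trend Bex1, Bex2, Wbp5 and Tceal1 change sign; Ngfrap1 (open) lies at -2.52, far below the trend.

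Of the 8 genes between Bex2 and Tceal1 that are not among the 6, 4 were under 1 exonic TPM. These were 5730412P04Rik (0 and 1 counts), Kir3dl2 (1 and 1), Kir3dl1 (0 and 0) and Tceal3 (4 and 2). Nxf3, an X-linked gene of the nuclear RNA export factor family, had 845 and 623 counts, or 35.6 and 30.7 CPM. Outside the interval the nearest genes were Arxes1, with 428 and 389 counts, and Morf4l2, a chromatin gene of the MRG family, with 39153 and 29576 counts or 1651 and 1459 CPM. The interval thus held a gene at 0 in both libraries as well as Bex1 and Wbp5, which were among the most highly expressed X-linked genes.

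Other Bex and Tceal genes were lower than 5 of the 6 members by CPM. Tceal7 had 124 and 158 counts and Tceal5 had 32 and 11, while Tceal6 had none and Bex6 had 5 and 7. Of the 6 other family genes in the table, 4 had enough counts for the test and 3 were called, 2 as lower and 1 as higher in replicate 2, beside 60.8% of all genes. The widest replicate difference among the tested family genes was that of Ngfrap1, the Bex3 gene, with 1379 counts in replicate 1 and 205 in replicate 2, or 58.1 and 10.1 CPM. It was 5.74-fold lower in replicate 2 (log2 of -2.52, adjusted p of 6.05e-174 in the exact binomial test), and only 0.185% of the 9736 genes had a larger absolute ratio. Its transcript had 53.7% GC, and against the GC trend its log2 ratio was -1.87. The part of GC content in this difference was not tested. Its neighbour Wbp5 was 1.09-fold higher in replicate 2 by library totals and at -0.05 (log2) against the GC trend.

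**Figure D4:**
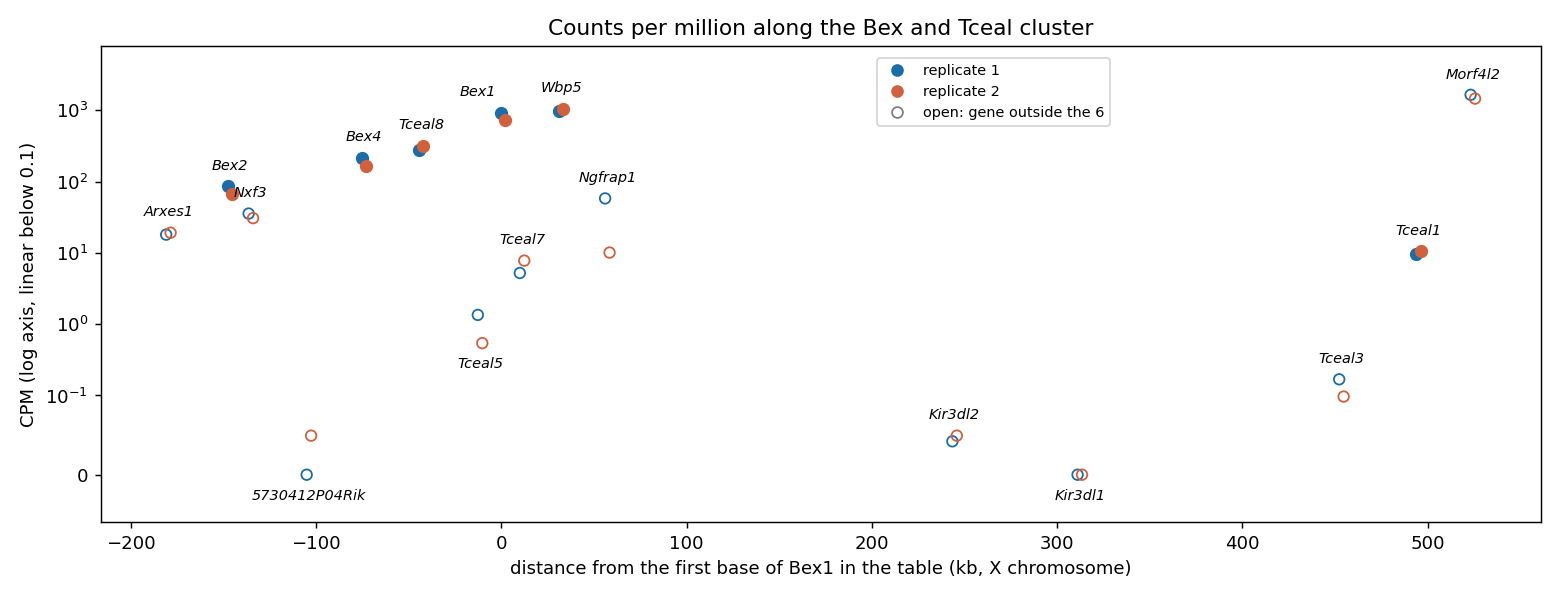
CPM (log axis, linear below 0.1) of the genes from Arxes1 to Morf4l2 against distance in kb from the first base of Bex1, for replicate 1 (blue) and replicate 2 (orange, set slightly to the right); filled points are the 6 genes and open points their neighbours. Bex1 and Wbp5 stand just below Morf4l2, Kir3dl1 lies at 0, and Ngfrap1 shows the widest gap between the replicates among genes over 1 CPM.

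The genes for which the families are known or named were read beside them. Ngfr, the p75 receptor bound by Bex1 and Ngfrap1, had 30 and 11 counts and stood at 1.16 and 0.528 exonic TPM. Tcea1, the widely expressed TFIIS gene, had 6558 and 6566 counts and stood at 289 and 360 exonic TPM, a mean of 325 ± 50.1 (SD, n = 2). Its relatives Tcea2 and Tcea3 had 385 and 146 and 209 and 65 counts. All 4 were called between the libraries by the exact binomial test, Tcea1 as higher and the other 3 as lower in replicate 2, against 60.8% of all genes.

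The label gives the cell type as mESC to NPC, and marker lists of 4 cell types were read for comparison. Of 12 ES cell markers, 11 had at least 10 exonic TPM, with summed levels of 3759 and 2975 CPM. The exact binomial test called 11 of the 12 between the libraries, 10 as lower and 1 as higher in replicate 2, beside 60.8% of all genes. Their median log2 ratio was -0.60, beside -0.31 over all genes tested, and the ratios ran from -3.06 (Dppa5a) and -2.76 (Pou5f1), both below the -2.52 of Ngfrap1, to 0.05 (Zfp42). The part of the ES cell markers in the differences of the Bex and Tceal genes was not tested. Of 12 neural precursor markers 2 had at least 10 exonic TPM (Map2 and Ncam1). The summed levels of the list were 124 and 127 CPM, and Sox1 and Olig2 were among those with no counts in either library. Fibroblast markers were listed because of the feeder cells, which the study's methods say were left behind by pre-plating before cells were harvested from dishes without feeders. They included 2 of 14 at that level (Sparc and Fn1), with summed levels of 382 and 337 CPM, and Lum was at 0. Primitive endoderm markers included 1 of 8 (Dab2), with 35.6 and 30.2 CPM. The part of other cells in the levels of the 6 genes was not tested.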

How the data were processed

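Poly(A) RNA from 2 uninduced replicates was made into stranded libraries. The authors deposited 1 table of raw counts, made with featureCounts 1.5.2, per the file headers, on mm10 over whole transcript spans, reverse stranded and by fragment. The submitters' processing notes also name STAR (2.4.2a) and Bowtie2 (2.3.2), and the alignment settings of these libraries are not given in the sources used here. Column names lack a letter b found in the descriptions of the samples and were matched by the rest of the name. Counts combine both X alleles.

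CPM and TPM were computed from the deposited counts (Python 3.11.15, pandas 2.3.3), with the span length of the table or the exonic length of GENCODE M21, matched for 98.0% of genes (21236 by symbol and 876 by an older symbol, Wbp5 as Tceal9). Log2 ratios were taken on CPM after adding 0.5 counts. The exact binomial test (scipy 1.17.1) was run on the whole table at an adjusted p under 0.05 and was tested on simulated data. The simulated counts held counting error alone, as the test assumes, so they do not show how it behaves on these libraries. Separate cultures are not stated for the replicates, and the difference between them may be technical. The test takes reads as independent and sets 1 library against 1, so its p-values cover counting error only and hold no spread between replicates. TMM (edgeR 4.0.16) and DESeq2 (1.42.0) factors, a cubic GC trend over genes that reached 50 counts in both libraries, other lengths, filters, word lengths and single replicates were alternatives. All 6 members were matched to RefSeq windows, 5 by the same symbol.

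The members, gene lists, markers and tests were chosen with earlier results of these data known. Named genes were the members, the other genes of the Bex, Tceal, Arxes, Gprasp and Armcx families, Ngfr and Tcea1 to Tcea3, the genes between and beside the members, and the 3 X-linked genes closest in level to Bex1 and to Wbp5. Markers outside this rule are named as part of their lists, and Gm12245, Gm4322 and Gm47178 because they share words with members.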

Additional observations from a re-analysis of the deposited data

How the results depend on the processing

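Over 18 results and 118 values under alternative settings, 81 kept their direction, call or size. Some of these could not have changed. Each log2 ratio is the same with no filter or with X-linked genes only, and the larger pseudocount left the test untouched. Leaving out 1 of 2 replicates moves a mean level by less than the SD of the pair. The 81 is therefore not a measure of stability. Summed over the 6 genes, the level was 22143 span TPM, 22610 with DESeq2 size factors and 2419 CPM with no length. It was 7714 TPM with exonic length and 7043 with exons limited to the deposited span. With the number of unshared 50-base words as length it was 10676, with the scaling total left at full exonic lengths. With either replicate left out the sum was 21972 to 22313 span TPM. The limited and the unshared lengths, the use of X-linked genes only as the background of the test, and the grouping with limited exons were chosen after seeing the data. By CPM, 2 of the 6 genes kept the rank they had by span TPM, and with either replicate left out 4 to 6 did. With exonic length 5 of the 6 genes stayed in the high group and by CPM 4. The replicate ratio (log2, replicate 2 over replicate 1) turned against the GC trend in Bex1 (0.29), Wbp5 (-0.052), Bex2 (0.30) and Tceal1 (-0.14). Tceal1 was called with TMM factors (0.35) and DESeq2 size factors (0.44), and Bex2 was not called with the latter (-0.07). With 75-base words 3 genes shared words with another gene, Tceal8 no longer among them, against 4 with 50-base words. No paired analysis was possible because there was only 1 group. Depth limits the lowest genes of the cluster, which had from 0 to 4 counts, and 2 libraries give an SD with little precision.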

Other observations

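The Arxes, Gprasp and Armcx genes, which lie on the Bex2 side of the cluster, were mostly expressed. Of 11 in the table, 8 had at least 10 exonic TPM. Bhlhb9 (also Gprasp3) had 4691 and 4240 counts, or 221 and 248 exonic TPM. Arxes2, one of a pair of adipocyte-related genes without introns in the annotation used, had 1733 and 2352 counts, or 150 and 254 exonic TPM, whereas Arxes1 had 36.0 and 40.7 exonic TPM. Armcx1 and Armcx2, genes of armadillo repeat proteins, stood at 142 and 153 and at 111 and 103 exonic TPM, and Armcx3 at 4.21 and 5.70. Armcx5 had no counts in either library, and its span lies inside that of Gprasp1 on the same strand, so its level is not known from this table. Of the 10 genes with enough counts, 6 were called between the libraries by the exact binomial test, 4 as lower and 2 as higher in replicate 2, beside 60.8% of all genes.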
